A study of Homo sapiens with 6 samples.

Results

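The DNAJ, or HSP40, family comprises the J-domain proteins that deliver clients to HSP70 chaperones. The family was taken as every entry of the deposited count table named DNAJA, DNAJB or DNAJC with a number, with or without a final letter A to C, and pseudogene names were not matched. This gave 44 of 56303 entries, of which 4 were DNAJA, 13 were DNAJB and 27 were DNAJC genes. RNA was sequenced from AGS, a long-established cell line of human gastric adenocarcinoma, and the comparison asked how silencing of SRSF2 changed RNA levels. SRSF2 encodes a serine/arginine-rich splicing factor. The siSRSF2 group (3 libraries) received a small interfering RNA (siRNA) that targets SRSF2, and the WT group (3 libraries) consisted of cells labelled wild-type. The labels do not say whether WT cells received a control siRNA, how long after transfection RNA was taken, or whether the replicates came from separate cultures. The p-values therefore reflect only how far these libraries spread, and that spread may be technical. Without a known control siRNA, effects of transfection or of any siRNA cannot be told apart from those of SRSF2 silencing.

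J proteins carry a conserved J domain whose histidine-proline-aspartate motif stimulates the ATPase of HSP70, which locks HSP70 onto a client. Class A members resemble bacterial DnaJ in having a zinc-finger-like region, class B members lack that region, and class C members share little beyond the J domain. The cytosolic class A and B members deliver unfolded proteins to HSPA8 and HSPA1A, several being induced by heat shock factor HSF1, whereas other members work in the endoplasmic reticulum, the mitochondrion, on ribosomes or on vesicles. Levels are given as CPM, the count of a gene scaled to 1e+06 reads per library with factors from the trimmed mean of M values (TMM). Levels of different genes are compared as FPKM, which is the CPM divided by the exon length in kilobases.

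Total counts were 26610937 to 36651623 in siSRSF2 libraries and 47518943 to 50021152 in WT libraries, and a count of 3 corresponded to 0.0778 to 0.110 CPM in siSRSF2 and 0.0630 to 0.0657 CPM in WT libraries, counting error only. SRSF2 itself stood at 22.7 ± 1.83 CPM in siSRSF2 cells and 45.0 ± 1.19 CPM in WT cells (SD, n = 3 each; log2 fold change -0.98, SE 0.064, edgeR adjusted p = 4.39e-13). Of 8 gastric epithelial markers, 2 were higher (MUC1 and CLDN4), 2 lower (KRT8 and CDX2) and 4 did not pass, and 3 exceeded 10 CPM in every library, led by KRT8 (2776 ± 101 CPM in siSRSF2 and 3236 ± 156 CPM in WT, SD, n = 3 each), while EPCAM was low (5.80 ± 0.436 CPM in siSRSF2 and 5.00 ± 0.500 CPM in WT). Fibroblast markers summed to 48.7 to 54.7 CPM in siSRSF2 and 20.2 to 21.5 CPM in WT libraries, with 4 of 5 higher. The 3 endothelial markers summed to 0.960 to 1.96 CPM in siSRSF2 and 3.01 to 3.24 CPM in WT libraries. No marker in these lists was at 0 in every library, and the part of these differences in the DNAJ results was not tested.

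Most of the family was lower in siSRSF2 than in WT libraries. Of the 44 members, 41 passed the filter on low counts, and 24 of these (58.5%) fell, 6 (14.6%) rose and 11 did not pass edgeR's quasi-likelihood test at a Benjamini-Hochberg adjusted p of 0.05. Across all 23689 tested genes, 29.0% were lower and 30.1% higher, 59.1% in either direction. When only genes with a mean CPM of at least 1 were tested, 23 of 38 members were lower and 7 higher, against 34.8% and 35.7% of 17174 genes. In bulk RNA, fewer cells with a transcript and less of it per cell cannot be told apart. The members' median log2 fold change was -0.27, against 0.02 over all tested genes. Scaling by library totals alone moved the medians to -0.14 and 0.15, and 21 members were then lower and 8 higher. Of all 23689 tested genes, 5492 were lower and 8560 higher under that scaling. The distance between the medians was -0.29 under either scaling. A change of scaling shifts every gene by nearly the same amount, so that distance is no check of the result. Falls over 2-fold occurred in 5 members, DNAJA1, DNAJC2, DNAJB1, DNAJB11 and DNAJC25, where the background was 5.91%. Scaled by library totals, DNAJB11 (-0.91) and DNAJC25 (-0.88) no longer passed 2-fold, which left 3, and the count was also 3 when only genes with a mean CPM of at least 1 were tested. Rises over 2-fold occurred in 3, DNAJC12, DNAJC28 and DNAJC4, against a background of 13.4%. The groups did not overlap in 30 of the 41 tested members, and 63.8% of all tested genes showed no overlap.

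**Figure D1:**
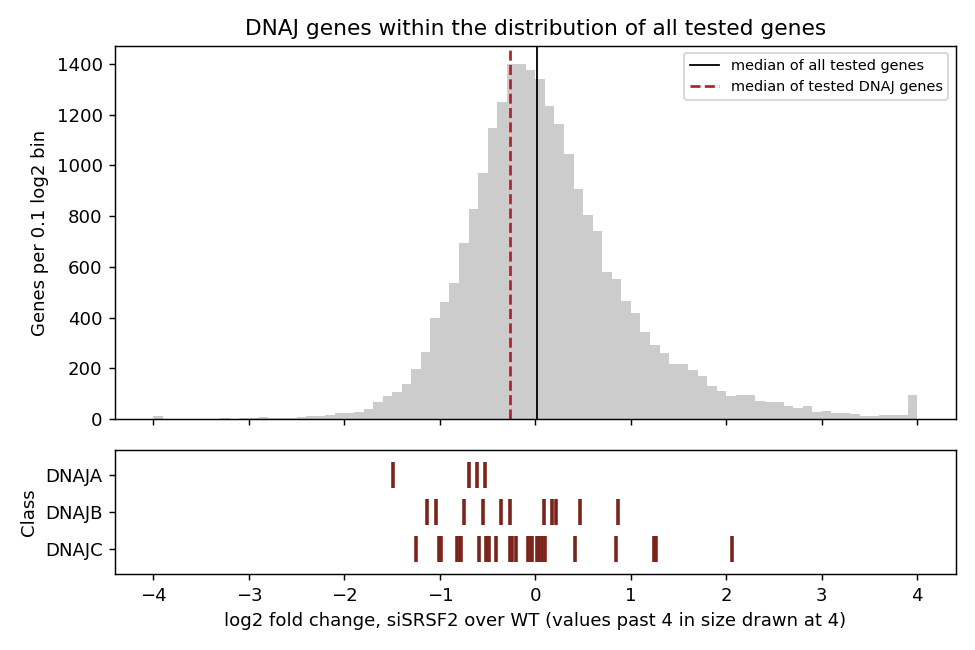
The upper panel is a histogram of the log2 fold change, siSRSF2 over WT, of all 23689 tested genes in bins of 0.1, with vertical lines at the median of all tested genes (0.02) and of the tested DNAJ genes (-0.27). The lower panel marks each tested member by class: the 4 DNAJA genes all lie left of 0, while DNAJB and DNAJC genes extend from -1.25 to 2.06.

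The promoters of 39 members were found in RefSeq (GRCh38.p14), as 51 windows, because some genes have several starts. They were searched on both strands for the letters of the heat shock element, the binding sequence of HSF1, since the largest falls included the heat-inducible members DNAJA1 and DNAJB1. The element was thus chosen after these falls were seen, so the calls of DNAJA1 and DNAJB1 are no separate result of the search. The full form of the element has 3 units that alternate between GAA and TTC with any 2 bases between neighbours. It was present in 0.490% of 35116 promoter windows and in 2 of the 51 member windows, those of DNAJA1 and DNAJB6. A shorter form, GAANNTTC or TTCNNGAA, is contained in the full form. It was present in 13.5% of all windows and in 9 of the 51 member windows, which belong to 8 members. Of those 8 members, 5 were lower (DNAJA1, DNAJB1, DNAJB6, DNAJA4 and DNAJC6) and 3 did not pass (DNAJB4, DNAJB7 and DNAJC15). The share lower, 62.5%, was near the 58.5% of all tested members, beside 29.0% of all tested genes. DNAJC2, DNAJB11 and DNAJC25, which also fell over 2-fold, held no match to either form in their windows. The letters of the endoplasmic reticulum stress element, CCAAT followed after any 9 bases by CCACG, were in 0.0769% of all windows and in none of the members' windows, which says only that these letters are not in them. The windows below run from 250 bases before the RefSeq start to 30 bases from it. Capitals mark the heat shock element letters in the first 4, all from members that were lower. In DNAJC12, the member with the largest rise, capitals mark the E-box letters CACGTG.
DNAJA1 (chr9:33025023-33025302, plus strand): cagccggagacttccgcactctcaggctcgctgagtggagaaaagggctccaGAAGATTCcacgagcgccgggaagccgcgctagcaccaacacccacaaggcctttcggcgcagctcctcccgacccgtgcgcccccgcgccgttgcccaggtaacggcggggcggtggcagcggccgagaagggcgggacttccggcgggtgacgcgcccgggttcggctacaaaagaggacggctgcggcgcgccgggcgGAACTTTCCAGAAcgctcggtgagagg
DNAJB6 (chr7:157336754-157337033, plus strand): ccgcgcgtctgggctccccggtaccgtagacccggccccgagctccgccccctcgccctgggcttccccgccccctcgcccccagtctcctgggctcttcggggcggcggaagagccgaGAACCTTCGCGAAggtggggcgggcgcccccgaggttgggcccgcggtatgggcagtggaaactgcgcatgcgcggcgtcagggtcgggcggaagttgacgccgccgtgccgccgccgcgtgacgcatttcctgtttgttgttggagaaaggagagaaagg
DNAJB1 (chr19:14518368-14518647, minus strand): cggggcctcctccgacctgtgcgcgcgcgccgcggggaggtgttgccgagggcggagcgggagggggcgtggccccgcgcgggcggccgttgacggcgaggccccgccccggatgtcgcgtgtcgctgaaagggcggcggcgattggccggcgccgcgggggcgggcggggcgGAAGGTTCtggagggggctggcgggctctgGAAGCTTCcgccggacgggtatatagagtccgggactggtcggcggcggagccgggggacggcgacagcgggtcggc
DNAJA4 (chr15:78264312-78264591, plus strand): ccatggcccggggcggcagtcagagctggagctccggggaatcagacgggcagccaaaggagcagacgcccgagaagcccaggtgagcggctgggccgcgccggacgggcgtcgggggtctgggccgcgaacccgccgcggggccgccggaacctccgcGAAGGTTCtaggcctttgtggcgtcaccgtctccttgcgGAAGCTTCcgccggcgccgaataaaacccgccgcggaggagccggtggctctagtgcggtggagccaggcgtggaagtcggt
DNAJC12 (chr10:67838159-67838438, minus strand): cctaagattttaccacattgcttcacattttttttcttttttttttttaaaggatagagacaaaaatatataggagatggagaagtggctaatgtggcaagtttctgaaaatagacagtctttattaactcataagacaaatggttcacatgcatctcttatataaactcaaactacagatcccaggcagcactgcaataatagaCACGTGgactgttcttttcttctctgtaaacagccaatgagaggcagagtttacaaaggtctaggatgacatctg
Counted from the start, with the start base as 0, the full element begins at position 3 in DNAJA1 and -131 in DNAJB6, and DNAJA1 holds a further short element at -198. The windows of DNAJB1 and DNAJA4 hold a pair of separate short elements each, at positions -77 and -47 in DNAJB1 and -91 and -52 in DNAJA4. The E-box letters were present in 7.26% of all windows and in 4 of the 51 member windows, which belong to 4 members. Of these members, DNAJC12 was higher, DNAJC8 lower and DNAJB9 and DNAJC16 did not pass. A match of letters is a description of the sequence and not a measured binding site.

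The cytosolic partners of HSP70 fell in 7 of 9 cases (77.8%), while 1 was higher and 1 did not pass. Their median log2 fold change was -0.52. For comparison, 58.5% of all tested members and 29.0% of all tested genes were lower. DNAJA1, a farnesylated class A member that works with HSPA8, lies on chromosome 9 at 33025211 to 33039907 (GRCh38, plus strand, 10 merged exons). It measured 535, 510.3 and 534 CPM in siSRSF2 libraries and 1441, 1448 and 1552 CPM in WT libraries. The groups were far apart, and DNAJA1 had the lowest log2 fold change of the family, -1.49 (SE 0.045, edgeR adjusted p = 1.25e-19), with 1.64% of all tested genes below it. DNAJB1, the classical heat-inducible HSP40 (chromosome 19, 14514770 to 14529770, minus strand, 8 merged exons), measured 46.2, 45.6 and 46.8 CPM in siSRSF2 and 100.3, 102 and 102 CPM in WT libraries. Replicates of DNAJB1 were tight in both groups, and the gene fell 2.20-fold (log2 fold change -1.14, SE 0.048, edgeR adjusted p = 8.03e-17).

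DNAJA2, a second abundant class A partner of HSPA8, fell less than DNAJA1, at 270.2, 264 and 249 CPM in siSRSF2 and 414, 418 and 434 CPM in WT libraries (log2 fold change -0.69, SE 0.045, edgeR adjusted p = 4.21e-13). DNAJA4 was the least abundant class A gene and measured 2.50, 2.93 and 3.43 CPM in siSRSF2 and 4.49, 4.31 and 4.03 CPM in WT libraries (-0.52, SE 0.15, edgeR adjusted p = 0.00408). For both genes all WT libraries lay above all siSRSF2 libraries. DNAJB6, a suppressor of polyglutamine aggregation, fell 1.68-fold and DNAJC7, whose tetratricopeptide repeats bind HSP70 and HSP90, fell 1.43-fold. DNAJB2, a J protein with ubiquitin-interacting motifs, fell by 0.36 on the log2 scale and did not pass when tested for exceeding a 1.2-fold change (edgeR adjusted p = 0.0626). DNAJB4, a class B member known as HLJ1, averaged 85.5 ± 6.38 CPM in siSRSF2 and 80.1 ± 2.17 CPM in WT (SD, n = 3 each), with overlapping groups (edgeR adjusted p = 0.134). It passed as higher when libraries were scaled by their totals (0.22 on the log2 scale, edgeR adjusted p = 0.000499), when only genes with a mean CPM of at least 1 were tested and without siSRSF2 replicate 3. DNAJB5, a close relative of DNAJB1 and DNAJB4, was higher, at 8.87, 6.28 and 7.56 CPM in siSRSF2 and 3.61, 4.38 and 4.43 CPM in WT libraries. Its rise was 1.82-fold (log2 fold change 0.86, SE 0.14, edgeR adjusted p = 4.04e-06) and its groups did not overlap, whereas its relative DNAJB1 fell.

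**Figure D2:**
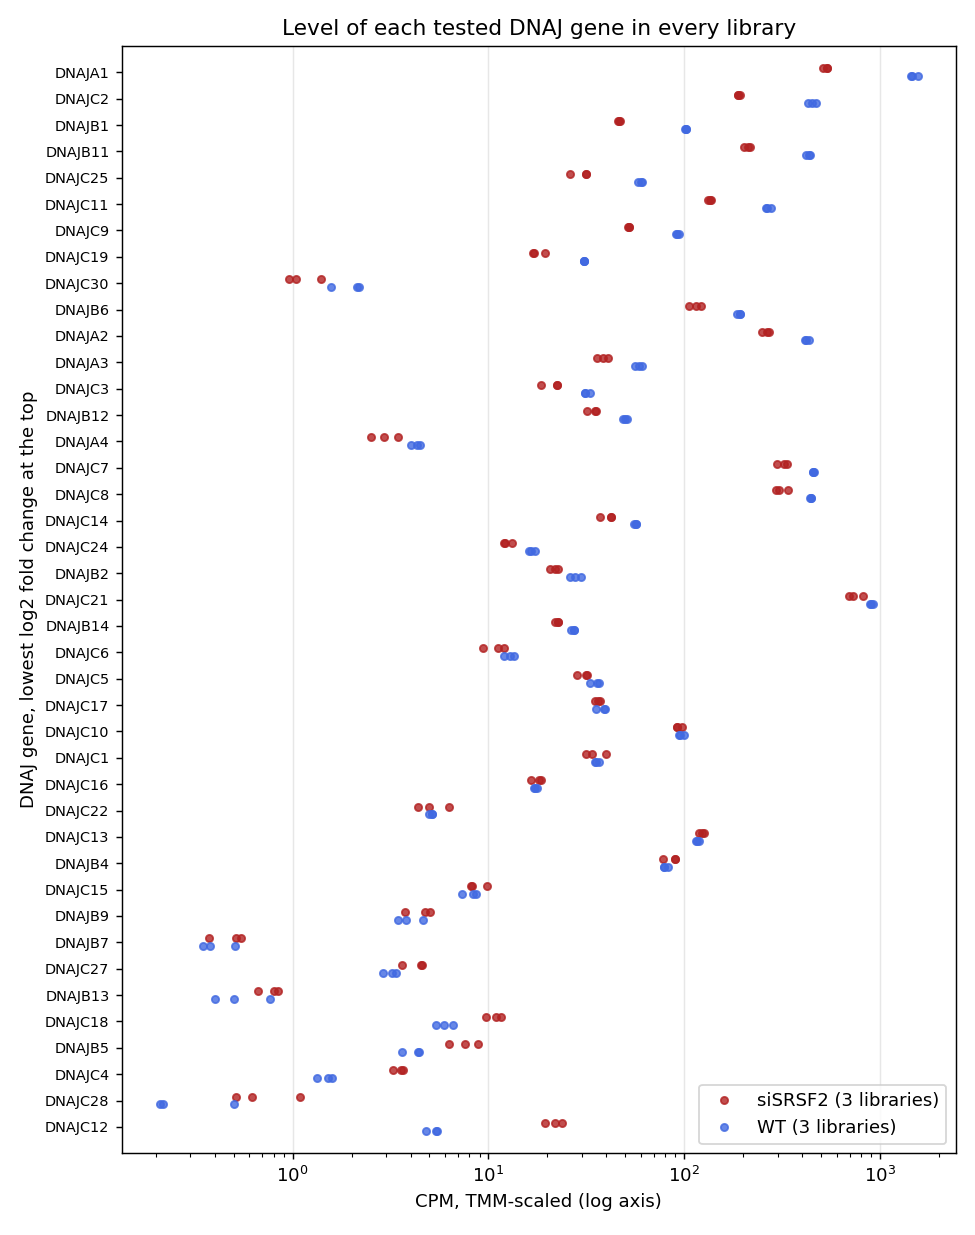
CPM (TMM-scaled, log axis) of the 41 tested DNAJ genes in each of the 3 siSRSF2 libraries and each of the 3 WT libraries, ordered from the lowest log2 fold change at the top to the highest at the bottom. The points of DNAJA1 lie between 510.3 and 535 CPM in siSRSF2 and between 1441 and 1552 CPM in WT, and those of DNAJC12 between 19.5 and 23.6 CPM in siSRSF2 and between 4.79 and 5.44 CPM in WT.

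Members that act on ribosomes, histones and the spliceosome fell in 4 of 5 cases, and none rose (median log2 fold change -0.49). Their share lower, 80.0%, stood beside 58.5% of all tested members and 29.0% of all tested genes. DNAJC2, or zuotin, forms the ribosome-associated complex with HSPA14 and receives nascent chains (chromosome 7, 103312474 to 103344873, minus strand, 13 merged exons). It measured 193, 187 and 188 CPM in siSRSF2 and 471, 451 and 428 CPM in WT libraries, a 2.37-fold fall (log2 fold change -1.25, SE 0.046, edgeR adjusted p = 5.14e-18) and the second lowest value in the family. Every siSRSF2 library lay far below every WT library. DNAJC9, a co-chaperone of histones H3 and H4, fell to 51.6, 52.4 and 52.2 CPM in siSRSF2, against 93.6, 91.1 and 91.8 CPM in WT libraries (-0.82, SE 0.048, edgeR adjusted p = 4.93e-14). DNAJC8, a spliceosome-associated J protein, fell to 338, 295 and 305 CPM in siSRSF2, against 442, 444 and 435 CPM in WT libraries (-0.49, SE 0.048, edgeR adjusted p = 1.24e-09). The groups of DNAJC9 and DNAJC8 did not overlap, although the siSRSF2 libraries of DNAJC8 spread more widely than its WT libraries. DNAJC21, which takes part in the late maturation of the large ribosomal subunit, changed least of the 5 most abundant members. It measured 820.3, 728 and 695 CPM in siSRSF2 and 899.7, 882 and 914 CPM in WT libraries (-0.27, SE 0.051, edgeR adjusted p = 7.76e-05), and it did not pass when tested for exceeding a 1.2-fold change (edgeR adjusted p = 0.378). DNAJC17, linked to pre-mRNA splicing, averaged 36.0 ± 1.15 CPM in siSRSF2 and 37.9 ± 2.09 CPM in WT (SD, n = 3 each; edgeR adjusted p = 0.302).

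The 11 members placed at the endoplasmic reticulum split, with 6 lower, 1 higher and 4 that did not pass, around a median log2 fold change of -0.26. Their share lower, 54.5%, was near the 58.5% of all tested members, beside 29.0% of all tested genes. DNAJB11, or ERdj3, is a soluble partner of the lumenal HSP70 protein HSPA5 (chromosome 3, 186567403 to 186585800, plus strand, 11 merged exons). It measured 215, 201 and 211 CPM in siSRSF2 and 431, 418 and 437 CPM in WT libraries (log2 fold change -1.04, SE 0.044, edgeR adjusted p = 1.01e-16). DNAJC25 measured 31.5, 31.4 and 26.1 CPM in siSRSF2 and 61.0, 58.2 and 60.3 CPM in WT libraries (-1.01, SE 0.064, edgeR adjusted p = 3.7e-13). For both genes every siSRSF2 library lay below every WT library. DNAJC3, an inhibitor of the kinases PERK and PKR that also assists HSPA5, fell by 0.59 on the log2 scale. The membrane-anchored DNAJB12 (-0.55) and DNAJC14 (-0.48) fell as well, and DNAJB14, a relative of DNAJB12, fell by 0.26. The last call was lost with scaling by library totals (edgeR adjusted p = 0.0846) and when tested for exceeding a 1.2-fold change (0.383).

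Of the members placed at the endoplasmic reticulum, 4 did not pass. DNAJB9, or ERdj4, a stress-induced partner of HSPA5, averaged 4.51 ± 0.668 CPM in siSRSF2 and 3.97 ± 0.609 CPM in WT (SD, n = 3 each; edgeR adjusted p = 0.322). DNAJC10, or ERdj5, a disulfide reductase, averaged 93.6 ± 3.35 CPM in siSRSF2 and 96.4 ± 2.90 CPM in WT (edgeR adjusted p = 0.458), and the membrane protein DNAJC1 35.0 ± 4.32 CPM in siSRSF2 and 35.7 ± 0.873 CPM in WT (edgeR adjusted p = 0.711; SD, n = 3 each). DNAJC16 did not pass either (log2 fold change 0.02, edgeR adjusted p = 0.823). DNAJC18, a membrane-anchored relative of DNAJB12 and DNAJB14, was higher, at 10.9, 9.73 and 11.5 CPM in siSRSF2 and 5.37, 5.91 and 6.58 CPM in WT libraries. It rose by 0.85 on the log2 scale (SE 0.11, edgeR adjusted p = 1.64e-07), with no overlap between the groups, whereas both relatives fell.

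**Figure D3:**
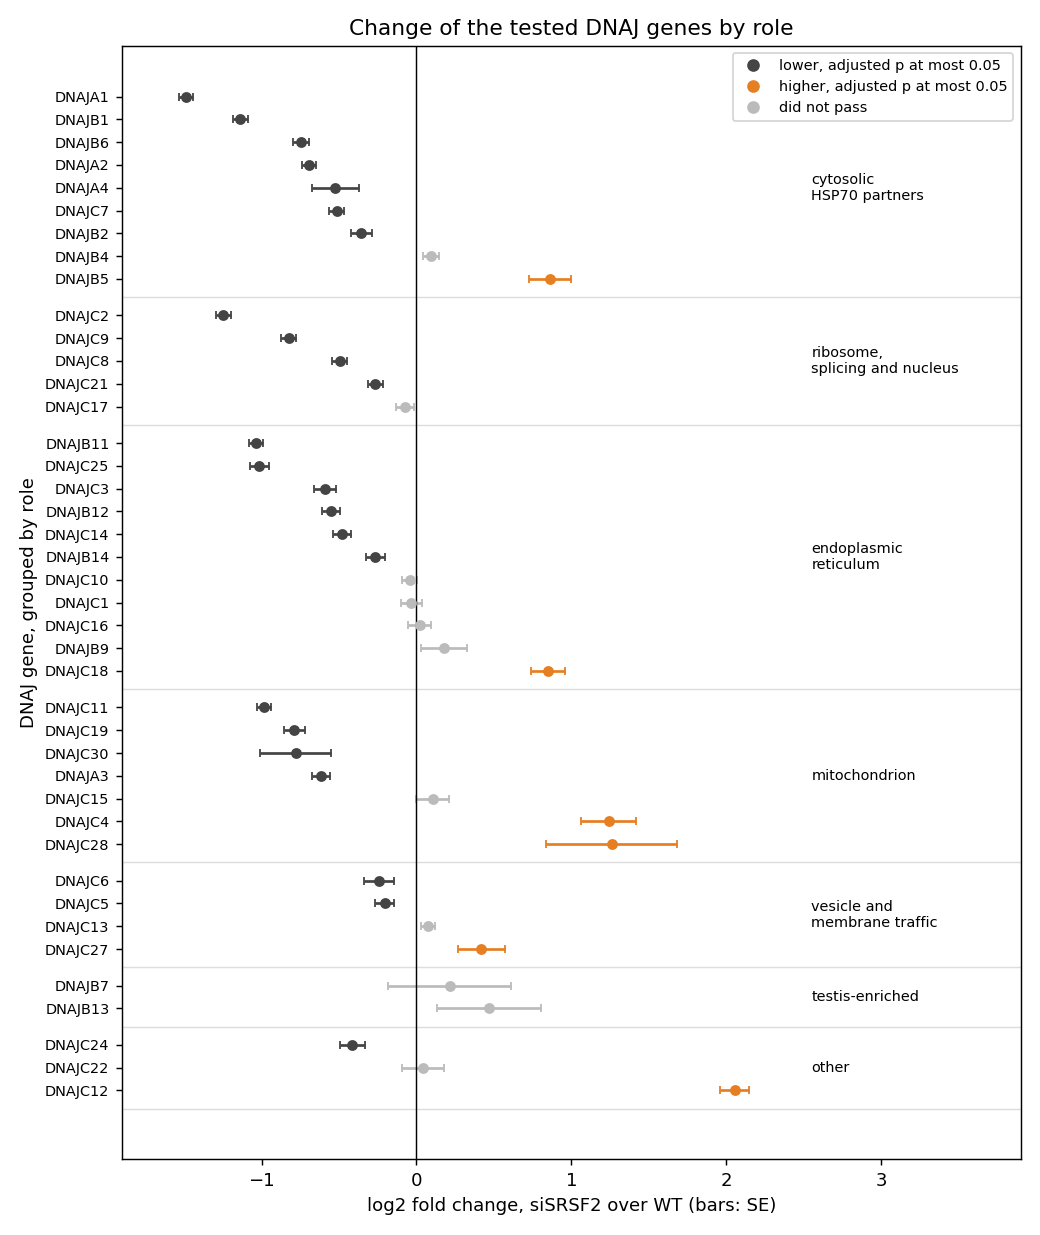
Log2 fold change, siSRSF2 over WT, of the 41 tested DNAJ genes with its standard error as a bar, grouped by role and coloured by whether the gene was lower, higher or did not pass at an adjusted p of 0.05. Falls reach -1.49 among cytosolic HSP70 partners, -1.25 among ribosomal and nuclear members and -1.04 at the endoplasmic reticulum, and the largest rise, 2.06, is DNAJC12.

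Mitochondrial members went in both directions. Of 7 tested, 4 were lower, 2 higher and 1 did not pass, around a median log2 fold change of -0.61. The share lower, 57.1%, was near the 58.5% of all tested members, beside 29.0% of all tested genes. DNAJC11, which associates with the complex that shapes cristae junctions, measured 133, 136 and 136 CPM in siSRSF2 and 260.1, 265 and 276 CPM in WT libraries (-0.98, SE 0.044, edgeR adjusted p = 2.54e-16). DNAJC19, of the inner-membrane import machinery, measured 16.8, 17.0 and 19.5 CPM in siSRSF2 and 30.8, 30.6 and 30.9 CPM in WT libraries (-0.79, SE 0.070, edgeR adjusted p = 1.94e-10). DNAJA3, or TID1, the class A partner of the matrix HSP70 protein HSPA9, measured 36.0, 40.5 and 38.3 CPM in siSRSF2 and 56.3, 58.8 and 61.1 CPM in WT libraries (-0.61, SE 0.057, edgeR adjusted p = 5.02e-10). None of these 3 genes had overlapping groups. DNAJC30, linked to complex I upkeep, fell at a low level, with 1.13 ± 0.236 CPM in siSRSF2 and 1.97 ± 0.344 CPM in WT (SD, n = 3 each; edgeR adjusted p = 0.0049).

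DNAJC4 was higher, at 3.57, 3.27 and 3.67 CPM in siSRSF2 and 1.51, 1.34 and 1.58 CPM in WT libraries, with no overlap and a 2.37-fold rise (log2 fold change 1.24, SE 0.18, edgeR adjusted p = 9.52e-07). DNAJC28 rested on few reads, with counts of 14, 24 and 38 in siSRSF2 and 24, 10 and 10 in WT libraries, or 0.515, 0.623 and 1.10 CPM in siSRSF2 and 0.504, 0.219 and 0.211 CPM in WT libraries. Its lowest siSRSF2 library and highest WT library nearly met, and the call (log2 fold change 1.26, SE 0.42, edgeR adjusted p = 0.0126) was lost without siSRSF2 replicate 3 (0.87, edgeR adjusted p = 0.138), without WT replicate 2 (1.06, 0.0587) and without WT replicate 3 (1.03, 0.0634). DNAJC15, a relative of DNAJC19 that lies in the same import machinery, did not pass, at 8.75 ± 0.932 CPM in siSRSF2 and 8.10 ± 0.688 CPM in WT (SD, n = 3 each; edgeR adjusted p = 0.422).

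Members that serve vesicles and endosomes had small log2 fold changes, from -0.24 to 0.42. DNAJC6, or auxilin, which uncoats clathrin vesicles, passed as lower (log2 fold change -0.24, edgeR adjusted p = 0.0328) although its groups overlapped, and the call was lost in 7 of 15 alternative analyses, among them those without siSRSF2 replicate 3 (edgeR adjusted p = 0.189), without WT replicate 1 (0.128) and without WT replicate 3 (0.0664). DNAJC5, the cysteine string protein of secretory vesicles, fell by 0.21 on the log2 scale (edgeR adjusted p = 0.00694), and that call was lost with scaling by library totals (edgeR adjusted p = 0.354), for exceeding a 1.2-fold change (0.723) and without siSRSF2 replicate 1 (0.0633). DNAJC13, an endosomal J protein, averaged 122 ± 3.27 CPM in siSRSF2 and 116 ± 2.43 CPM in WT (SD, n = 3 each; edgeR adjusted p = 0.168), and passed as higher when libraries were scaled by their totals (0.20 on the log2 scale, edgeR adjusted p = 0.000382) and when only genes with a mean CPM of at least 1 were tested (0.0172). DNAJC27, a small GTPase fused to a J domain, measured 4.56, 3.61 and 4.53 CPM in siSRSF2 and 3.36, 2.89 and 3.20 CPM in WT libraries (0.42, SE 0.15, edgeR adjusted p = 0.0182). That call was lost without siSRSF2 replicate 1 (edgeR adjusted p = 0.0637), without siSRSF2 replicate 3 (0.0728), without WT replicate 2 (0.0855), with no filter on low counts (0.0796) and for exceeding a 1.2-fold change (0.110).

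DNAJC12, a co-chaperone of the aromatic amino acid hydroxylases, rose most in the family. It lies on chromosome 10 at 67796665 to 67838166 (minus strand, 7 merged exons) and shares no exon position with another entry. Its level was 23.6, 21.9 and 19.5 CPM in siSRSF2 libraries and 5.37, 4.79 and 5.44 CPM in WT libraries, with counts of 642, 844 and 676 in siSRSF2 and of 256, 219 and 258 in WT libraries. The groups were far apart, and all 6 counts were well above the floor of 3. The rise was 4.16-fold (log2 fold change 2.06, SE 0.094, edgeR adjusted p = 3.82e-16), and its log2 fold change exceeded that of 96.2% of all tested genes. DNAJC24, which takes part in diphthamide synthesis, fell 1.33-fold (edgeR adjusted p = 6.88e-05). DNAJC22 averaged 5.21 ± 0.994 CPM in siSRSF2 and 5.08 ± 0.112 CPM in WT (SD, n = 3 each; edgeR adjusted p = 0.808).

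The testis-enriched members were low, and those tested averaged under 1 CPM in both groups. DNAJB7 averaged 0.478 ± 0.0906 CPM in siSRSF2 and 0.411 ± 0.0830 CPM in WT and did not pass (SD, n = 3 each; edgeR adjusted p = 0.67). DNAJB13 averaged 0.772 ± 0.0957 CPM in siSRSF2 and 0.557 ± 0.188 CPM in WT and did not pass (SD, n = 3 each; edgeR adjusted p = 0.245). The 3 members outside the test were DNAJB8, DNAJC5B and DNAJB3. DNAJB8 had counts of 6, 9 and 10 in siSRSF2 and 4, 4 and 2 in WT libraries. DNAJC5B had counts of 0, 0 and 1 in siSRSF2 and 0, 2 and 0 in WT libraries. DNAJB3, which GENCODE release 29 classes as a transcribed processed pseudogene despite its name, had a count of 0 in all 6 libraries.

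Levels per exon length showed how unequal the family was. DNAJA1 was the most abundant member, at 193 ± 5.16 FPKM in siSRSF2 and 542 ± 22.7 FPKM in WT, followed by DNAJC8 at 108 ± 7.87 FPKM in siSRSF2 and 153 ± 1.63 FPKM in WT (SD, n = 3 each). DNAJC21 averaged 81.8 ± 7.09 FPKM in siSRSF2 and 98.3 ± 1.71 FPKM in WT, DNAJA2 51.5 ± 2.17 FPKM in siSRSF2 and 83.3 ± 2.05 FPKM in WT, and DNAJB11 36.4 ± 1.30 FPKM in siSRSF2 and 74.8 ± 1.69 FPKM in WT (SD, n = 3 each). DNAJA1 and DNAJC8 were thus ahead of the rest in both groups. All 44 members together summed to 761, 717 and 718 FPKM in siSRSF2 libraries and 1327, 1324 and 1373 FPKM in WT libraries. Without DNAJA1 the sums were 539 ± 22.9 FPKM in siSRSF2 and 799 ± 5.31 FPKM in WT. As a share of all counts, the family took 0.376% to 0.389% in siSRSF2 and 0.576% to 0.585% in WT libraries. FPKM uses the merged exons of every annotated isoform, which came to 21826 bases for DNAJC10, and which of them are used in these cells was not tested.

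The make-up of this pool differed between the groups. DNAJA1 made up 25.8%, 26.1% and 27.3% of the summed FPKM in siSRSF2 libraries and 39.8%, 40.1% and 41.4% in WT libraries. DNAJC8 held 14.8% ± 0.581 in siSRSF2 and 11.4% ± 0.348 in WT, and DNAJC21 held 11.2% ± 0.597 in siSRSF2 and 7.33% ± 0.0772 in WT (SD, n = 3 each). By role, cytosolic HSP70 partners took 44.6% ± 0.525 in siSRSF2 and 55.3% ± 0.838 in WT, and the ribosomal, splicing and nuclear members 32.6% ± 0.918 in siSRSF2 and 26.1% ± 0.765 in WT. DNAJC12 made up 1.39% ± 0.0987 in siSRSF2 and 0.183% ± 0.0107 in WT. Mitochondrial members took 5.47% ± 0.311 in siSRSF2 and 5.35% ± 0.0694 in WT, a difference within the spread between libraries. The summed level of the vesicle members was 20.9 ± 0.453 FPKM in siSRSF2 and 21.2 ± 0.227 FPKM in WT. Shares within a pool are not independent of each other, and these are given as descriptions without a test.

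**Figure D4:**
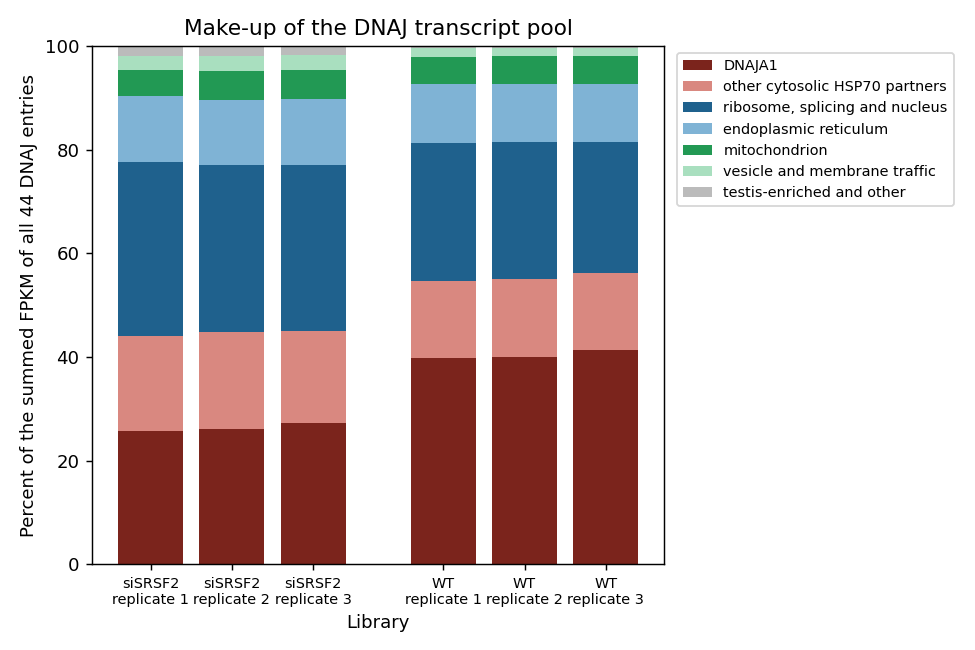
Stacked bars give the percent of the summed FPKM of all 44 DNAJ entries held by DNAJA1 and by the members of each role, in the 3 siSRSF2 libraries and the 3 WT libraries. DNAJA1 takes 25.8% to 27.3% in siSRSF2 and 39.8% to 41.4% in WT, and the ribosomal, splicing and nuclear members take 32.0% to 33.6% in siSRSF2 and 25.2% to 26.7% in WT.

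Ratios within a library do not depend on library scaling, and 6 were computed on the FPKM scale. DNAJA1 exceeded DNAJA2 3.68-, 3.59- and 3.98-fold in siSRSF2 libraries and 6.45-, 6.43- and 6.64-fold in WT libraries (log2 difference -0.80, SE between libraries 0.048). DNAJA1 over HSPA8, the constitutive cytosolic HSP70, was 1.06 ± 0.0176 in siSRSF2 and 0.902 ± 0.0102 in WT, and DNAJB1 over HSPA8 was 0.0693 ± 0.000132 in siSRSF2 and 0.0461 ± 0.00147 in WT (SD, n = 3 each). The log2 fold change of HSPA8 itself was -1.73. DNAJA1 over DNAJB1 was 15.3 ± 0.275 in siSRSF2 and 19.6 ± 0.728 in WT, and DNAJB11 over HSPA5 was 0.521 ± 0.0337 in siSRSF2 and 0.405 ± 0.0153 in WT (SD, n = 3 each). For these 5 ratios the groups did not overlap, and the two-sided exact permutation test returned p = 0.1, which is the lower limit for 3 libraries per group (0.12 after Benjamini-Hochberg adjustment over the 6). DNAJC2 over HSPA14, its ribosomal partner, was 7.27 ± 1.23 in siSRSF2 and 8.71 ± 0.412 in WT, with overlapping groups (SD, n = 3 each; exact permutation p = 0.2, adjusted 0.2).

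The members most alike in change were found by the difference in log2 fold change among the 40 other tested members. Closest to DNAJA1 were DNAJC2 (0.24 higher), DNAJB1 (0.35) and DNAJB11 (0.45). As DNAJA1 had the lowest log2 fold change, these are by necessity the next members in that order. Closest to DNAJB1 were DNAJB11 (0.10 higher), DNAJC2 (difference -0.11) and DNAJC25 (0.13 higher).

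Other genes of the HSP70 system were mostly lower too, counted over lists of partner genes chosen with earlier results of these data known. Of all tested genes, 29.0% were lower and 30.1% higher. When only genes with a mean CPM of at least 1 were tested, 34.8% were lower. Of 14 HSP70 proteins, 12 fell and none rose (median log2 fold change -1.0), where HSPA2 and HSPA13 did not pass. HSPH1, an exchange factor of the HSP70 superfamily, fell to 136 ± 4.46 CPM in siSRSF2, against 565 ± 17.5 CPM in WT (-2.05, SD, n = 3 each). HSPA8 (-1.73), HSPA5 (-1.40) and HSPA4 (-0.91) fell as well. Of 10 nucleotide exchange factors, which release ADP from HSP70, 8 fell and 1 rose (median -0.44). GRPEL1 (-1.14), BAG2 (-1.05) and BAG3 (-1.28) fell, whereas BAG1 rose to 1168 ± 45.4 CPM in siSRSF2, against 814 ± 7.34 CPM in WT (0.52, edgeR adjusted p = 6.84e-11; SD, n = 3 each).

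Chaperones outside the family that are linked to HSF1 fell in 16 of 18 tested cases and rose in 2 (median -0.71). Among all tested genes 29.0% were lower and 30.1% higher. HSP90AA1 (-1.54), CHORDC1 (-1.36), HSPE1 (-1.33) and CACYBP (-1.16) of the HSF1-linked list were lower. Endoplasmic reticulum chaperones and degradation partners were 11 lower, 2 higher and 7 not past the test of 20 (median -0.19). In that list MANF (-0.87), DERL2 (-0.66) and DERL1 (-0.61) fell and OS9 rose (0.58). Of 4 tested J proteins with other names, 1 was lower and 3 did not pass. SEC63 of the translocon (edgeR adjusted p = 0.0719), HSCB of iron-sulfur cluster transfer (0.213) and the auxilin relative GAK (0.239) were the 3 that did not pass. DNAJC5G had counts of 3, 2 and 2 in siSRSF2 and 0 in each WT library and was not tested.

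Shared exon positions limit how far some of these values belong to a member alone. Of the 44 members, 23 share positions with another entry of the table, and no source used here gives the strand setting of the read counting. Among the 21 without such sharing, 19 were tested, 12 were lower and 3 higher (median log2 fold change -0.27). Among the 22 tested with sharing, 12 were lower and 3 higher (median -0.36). The shares lower were 63.2% without sharing and 54.5% with it, beside 29.0% of all tested genes, of which 30.1% were higher. Falls over 2-fold numbered 1 without sharing (DNAJA1) and 4 with it (DNAJC2, DNAJB1, DNAJB11 and DNAJC25), against a background of 5.91%. DNAJC2 shares 9.57% of its exon positions with PMPCB and DNAJB1 6.21% with TECR, both on the other strand. DNAJC4 shares 10.6% with NUDT22 on the same strand. DNAJB11 shares 451 bases with RP11-134F2.8 on the same strand, whose counts were 2906, 3797 and 3468 in siSRSF2 and 9953, 9083 and 9964 in WT libraries. DNAJC14 shares 23.2% of its exon positions with RP11-762I7.5 on the same strand, whose counts exceeded those of DNAJC14 in every library. DNAJC11 shares 27.9% with THAP3 and DNAJC9 24.0% with FAM149B1, both on the other strand. FAM149B1 had counts of 840, 1170 and 1065 in siSRSF2 and 1977, 1677 and 1747 in WT libraries. DNAJC30 shares 14.4% with WBSCR22, also on the other strand. WBSCR22 had counts of 3256, 4602 and 3982 in siSRSF2 and 6112, 5698 and 5702 in WT libraries, far above those of DNAJC30. DNAJC25 shares 13.8% with the read-through entry DNAJC25-GNG10, whose counts of 250, 392 and 404 in siSRSF2 and 524, 589 and 532 in WT libraries were below those of DNAJC25. Processed pseudogenes could take reads of their parent genes, and 18 DNAJ-named pseudogene entries were present. The entry with the most counts among them, DNAJC19P5, had 97, 148 and 122 in siSRSF2 and 127, 130 and 107 in WT libraries, where DNAJC19 had 456, 656 and 677 in siSRSF2 and 1466, 1398 and 1465 in WT libraries. How far reads of DNAJC19 were assigned to its pseudogenes was not tested. Among pseudogenes of DNAJA1, the highest, DNAJA1P3, had counts of 12, 22 and 14 in siSRSF2 and 64, 66 and 54 in WT libraries, where DNAJA1 had counts of 14540, 19667 and 18507 in siSRSF2 and 68651, 66169 and 73627 in WT libraries.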

How the data were processed

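Per the labels' protocols, TRI Reagent was used for RNA and a SMARTER kit for libraries. The table deposited by the authors gives unnormalized read counts for each gene name. HISAT2 2.0.5, featureCounts 1.5.0-p3 and the mouse build mm10 are named, per the submitters' processing notes. The table holds human names and positions, and 43 of 44 members had the same span in GENCODE release 29, so positions are given as GRCh38. No source used here gives the strand setting or the handling of reads that match several genes. Of entries with counts of 1 to 20, between 75.8% and 79.1% per library were even, so reads need not be independent fragments, and floors cover counting error only.

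In R 4.3.3, edgeR 4.0.16 compared siSRSF2 with WT over the whole table (filterByExpr, minimum count 10; TMM; robust quasi-likelihood F test; Benjamini-Hochberg adjustment over 23689 genes). SEs were obtained by dividing the log2 fold change by the square root of F. The pipeline was run on simulated counts with few planted changes, as many up as down. Such a run cannot check the scaling of these data, where many genes changed. Alternatives were DESeq2 1.42.0, limma 3.58.1 (voom), RLE factors, library totals, no filter, a mean CPM of at least 1, a non-robust fit, a test against 1.2-fold, the replicate number as a block and each library left out. Same-numbered libraries deviated with correlations of 0.0133, -0.0472 and -0.0457, and the main fit treated libraries as unpaired. These correlations show no deviation shared by number, but they cannot exclude a paired design that the labels do not describe.

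Members, lists and roles were chosen with earlier results of these data known. Values per library are given for class A genes, the 8 lowest and up to 8 highest changes among genes past the test, and the 5 highest mean FPKM. Of each partner list, up to 4 genes with the smallest p are named. Other members and partner genes named were chosen for their role or after their values were seen. Some genes of the marker and partner lists are not reported here.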

Additional observations from a re-analysis of the deposited data

How the results depend on the processing

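Of the 30 members past the test, 23 kept their call and direction in all 15 alternatives, 7 lost the call in at least 1 and none changed sign. The 7 were DNAJB2, DNAJC21, DNAJB14, DNAJC6, DNAJC5, DNAJC27 and DNAJC28. Members lower numbered 19 to 24 and members higher 4 to 8 over the alternatives. The counts over all tested genes moved too, from 4941 to 7613 lower and from 5569 to 8560 higher, with 17174 to 44361 genes tested. With the replicate number as a block, 24 members were lower and 6 higher, as without it. The members' median log2 fold change was -0.14 with library totals, -0.34 with no filter and -0.34 with a mean CPM of at least 1, and -0.32 to -0.26 with a library left out. Over all tested genes the median was 0.15 with library totals, a shift of 0.13, and -0.0085 with no filter. Among 66 tested partner genes, 48 were lower, against 39 with library totals and 36 in the test against 1.2-fold. Those higher numbered 5, against 12 with library totals and 3 in the test against 1.2-fold. The summed FPKM of the family was 764 in siSRSF2 and 1281 in WT with library totals, against 732 and 1341. The cause of these shifts was not tested. Depth limits members under about 1 CPM, such as DNAJC28, DNAJB7 and DNAJB13.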
